A study of Mus musculus with 4 samples.

Results

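Zeb1, Zeb2, Snai1, Snai2, Twist1 and Twist2 encode the core transcription factors of the epithelial to mesenchymal transition (EMT). Their rows were taken by gene symbol from the deposited single-cell count matrix of the mouse mammary gland, and all 6 were found among its 27998 genes. In the GENCODE annotation of GRCm38, Twist2 lies at chr1:91801461-91848028 (plus strand), Zeb2 at chr2:44983632-45117395 (minus strand), Snai1 at chr2:167538195-167542814, Twist1 at chr12:33957671-33959829 and Snai2 at chr16:14705852-14709385 (all plus strand). No member served to name a cell type. The levels by cell type still depend on how the cells were named, since cells with the markers of several types were left out. Among those left out were 75 cells with markers of basal cells and fibroblasts, and 72 with markers of luminal progenitors and fibroblasts.

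The EMT is the change by which a polarised epithelial cell loses its junctions and takes on a migratory, mesenchymal form. ZEB1 and ZEB2 are zinc-finger and homeodomain repressors, SNAI1 (Snail) and SNAI2 (Slug) are zinc-finger repressors, and TWIST1 and TWIST2 are basic helix-loop-helix factors. All of them bind E-box motifs, and the ZEB and SNAIL proteins are known for shutting down E-cadherin and other junction genes. The ZEB messages are in turn repressed by the miR-200 family, which closes a double-negative loop. In the mammary gland SNAI2 is known as a factor of basal cells, whereas the ZEB and TWIST genes are known from the stroma.

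Single cells of adult C57BL/B6 mammary glands were sorted by flow cytometry and profiled on the 10x Chromium platform (3′ kit, v2). This assay primes on the poly(A) tail and counts each captured molecule once by its unique molecular identifier (UMI). The 4 libraries were Zeb1 MSKO at 8 weeks, Zeb1 MSKO at 9 weeks, Control at 8 weeks and Control at 9 weeks, 1 each. The labels do not expand MSKO, name the deleted part of Zeb1 or give a Cre driver, and they do not say which markers the sort used. They also do not state how many animals gave each library, so the p-values rest on a spread among 4 libraries that may be technical. In each pair of values below, the library at 8 weeks precedes that at 9 weeks.

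The libraries held 9693 and 9774 cell barcodes for Zeb1 MSKO, against 9790 and 7627 for Control, with 80853204 to 122122443 UMIs each. Of all 36884 barcodes, 36470 passed the filters, and any pair of libraries shared 89 to 148 barcode sequences. Cells were named by a gate on marker genes, and each cell type name used here means cells that passed that gate alone: 10673 basal, 11402 luminal progenitor, 8530 hormone-sensing luminal, 973 fibroblast and 644 endothelial cells, with few cells in 7 rarer types, 1767 cells in no gate and 2259 cells in more than 1 gate, which were left out as possible doublets. The Zeb1 MSKO library at 8 weeks stood apart, with the lowest median depth (6376 UMIs, against 9403 to 10529.5 in the others), 46.9% basal cells (17.7% to 27.4% in the others) and 132 of the 133 hair follicle cells. Fibroblasts were well sampled at 8 weeks only: 529 and 30 in the Zeb1 MSKO libraries, against 389 and 25 in the Control libraries.

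The miR-200 family is shown because its seeds (bases 2 to 8, in capitals) sort it into the pair of groups that read different sites in the ZEB messages. The mature sequences are from RefSeq (GRCm38.p6). miR-200a-3p and miR-141-3p share the seed AACACUG, and miR-200b-3p, miR-200c-3p and miR-429-3p share AAUACUG. These libraries capture polyadenylated RNA and give no miRNA levels.
miR-200a-3p: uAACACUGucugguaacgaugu
miR-141-3p: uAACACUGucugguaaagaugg
miR-200b-3p: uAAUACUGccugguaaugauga
miR-200c-3p: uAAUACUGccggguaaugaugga
miR-429-3p: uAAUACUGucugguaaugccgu

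The 3′ untranslated region of Zeb2 (transcript Zeb2-212, 4941 bases, chr2:44983632-44988572, minus strand, GRCm38) held 9 matches to these seeds, 5 of CAGTATT and 4 of CAGTGTT on the transcribed strand. Of the 9, 8 lay 209 to 1039 bases after the stop codon and 1 lay 4163 bases after it. A match of each kind is printed with the seed match in capitals, site 3 at chr2:44988108-44988129 and site 5 at chr2:44987784-44987805 (both on the minus strand). They are matches of letters only, and binding was not measured.
Zeb2 site 3: gcactacagtgcatCAGTATTa
Zeb2 site 5: ctttgcaccagcttCAGTGTTa

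The E-box read by ZEB and SNAIL proteins, CAGGTG or its reverse complement CACCTG, was searched on both strands in the window from 250 bases before to 50 bases after each start site in RefSeq. It is one form of the general E-box CANNTG. Of the 23 genes listed as epithelial targets of these repressors, 14 had a window in the table and 11 of these (78.6%) held the motif, as did 2 of 9 mesenchymal genes (22.2%) and 6098 of all 27025 genes (22.6%). The general CANNTG was in 11 of the 14 target genes and in 75.0% of all genes. The list was made of known targets of proteins that read this motif, so its share is a description and not a test. Cdh1, the E-cadherin gene, was among the listed genes without a window. The 250 bases before the start are printed for Epcam, a cell adhesion gene of epithelia (chr17:87635729-87635978, plus strand), and Rab25, an epithelial vesicle GTPase (chr3:88548280-88548529, minus strand), and for Snai1 itself (chr2:167537945-167538194, plus strand), whose promoter also held a match. Capitals mark the matches, whose first bases lie 187 and 19 bases before the start of Epcam, 64 and 53 before that of Rab25 and 126 before that of Snai1. No match was found in the windows of Twist1, Twist2 and 4 starts of Zeb2.
Epcam promoter: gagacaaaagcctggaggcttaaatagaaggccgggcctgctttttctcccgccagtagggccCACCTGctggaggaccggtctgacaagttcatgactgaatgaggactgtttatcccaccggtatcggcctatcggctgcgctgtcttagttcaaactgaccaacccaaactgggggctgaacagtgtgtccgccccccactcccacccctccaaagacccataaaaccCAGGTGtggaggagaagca
Rab25 promoter: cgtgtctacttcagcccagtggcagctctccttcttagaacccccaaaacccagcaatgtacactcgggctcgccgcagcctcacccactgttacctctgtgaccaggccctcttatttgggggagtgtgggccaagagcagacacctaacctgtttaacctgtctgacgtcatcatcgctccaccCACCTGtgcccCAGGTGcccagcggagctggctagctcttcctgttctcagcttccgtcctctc
Snai1 promoter: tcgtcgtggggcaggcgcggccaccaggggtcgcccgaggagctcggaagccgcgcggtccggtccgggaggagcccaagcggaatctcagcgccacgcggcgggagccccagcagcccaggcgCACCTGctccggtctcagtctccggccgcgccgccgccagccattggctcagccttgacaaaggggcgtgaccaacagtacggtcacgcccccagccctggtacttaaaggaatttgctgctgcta

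Zeb1, the targeted gene, was measured first as a check of the labels. In fibroblasts it stood at 75.0 and 54.5 counts per 1000000 UMIs (CPM) in the Zeb1 MSKO libraries, against 61.1 and 85.1 CPM in the Control libraries. In endothelial cells it stood at 88.1 and 118 CPM in Zeb1 MSKO, against 71.3 and 43.6 CPM in Control, where the values at 9 weeks rest on 8 and 9 cells. In fibroblasts the library labelled Zeb1 MSKO was thus the higher of the pair at 8 weeks and the lower at 9 weeks, and in endothelial cells it was the higher at both ages. Since UMIs come from the 3′ end and the deleted part is not stated, these counts cannot check the labels, and Zeb1 MSKO and Control are used here as the names of the libraries.

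**Figure D1:**
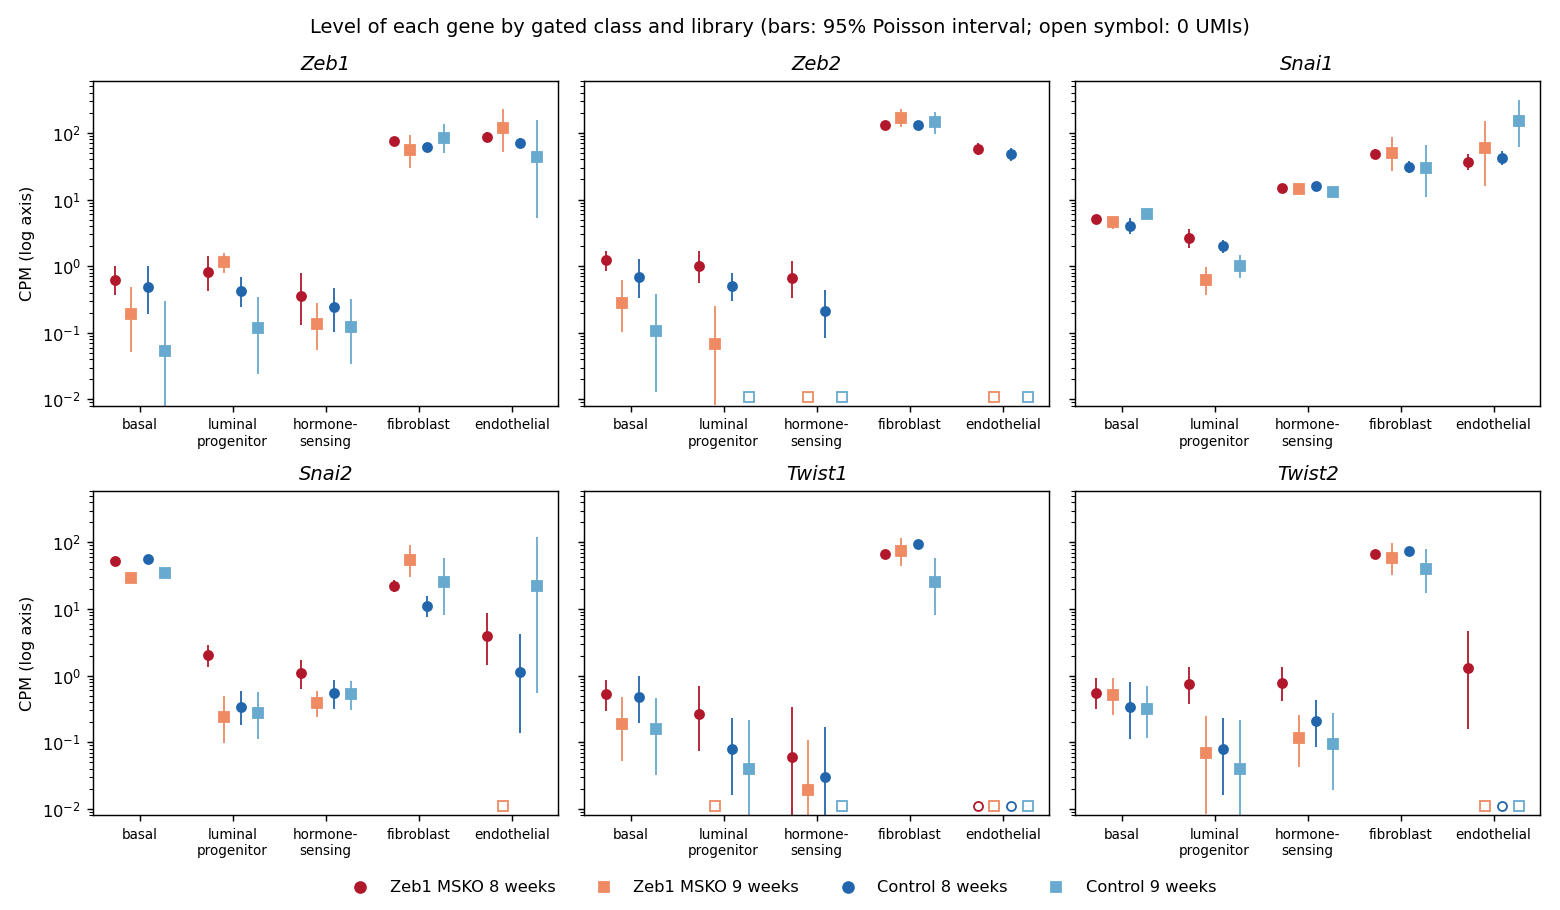
Level of each EMT factor (CPM, log axis) in 5 gated cell types, with a point per library and bars for the exact 95% Poisson interval, which covers counting error only. Zeb1, Zeb2, Twist1 and Twist2 peak in fibroblasts or endothelial cells, Snai2 reaches 29.1 to 57.3 CPM in basal cells, and Snai1 lies at 13.1 to 15.7 CPM in hormone-sensing luminal cells.

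The ZEB genes were stromal and endothelial in these cells. Of the 1080 Zeb1 UMIs, 45.1% lay in fibroblasts, 24.8% in endothelial cells and 11% in the 3 epithelial types together. Cells that passed more than 1 gate, which were left out, held 12.1%. The share of fibroblasts with a Zeb1 UMI was 34.6% and 33.3% in Zeb1 MSKO, against 31.1% and 36.0% in Control, at a median of 6623 to 8232.5 UMIs per cell. The corresponding share of hormone-sensing luminal cells was 0.547% and 0.206% in Zeb1 MSKO, against 0.291% and 0.189% in Control, at a median of 14150 to 17414 UMIs. Zeb1 was also found in T or NK cells, with 21 UMIs in 35 cells (65.9 and 67.2 CPM in Zeb1 MSKO, against 104 and 223 CPM in Control).

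In the epithelium Zeb1 rested on few UMIs. Basal cells held 18 and 4 Zeb1 UMIs in Zeb1 MSKO, against 7 and 1 in Control (0.627 and 0.189 CPM against 0.479 and 0.053 CPM), where 3 counts correspond to 0.105 to 0.205 CPM. Luminal progenitors held 12 and 33 UMIs in Zeb1 MSKO, against 16 and 3 in Control (0.809 and 1.14 CPM against 0.420 and 0.118 CPM), where 3 counts correspond to 0.0787 to 0.202 CPM, and hormone-sensing cells held 6 and 7, against 8 and 4. Zeb1 was called higher in luminal progenitors than in hormone-sensing cells (log2 fold change 1.55, SE 0.53, edgeR adjusted p = 0.0210; 55.3% of genes were called in that comparison, 27.8% higher and 27.5% lower). The call was lost without the Zeb1 MSKO library at 9 weeks (0.81, adjusted p = 0.229) and with a stricter gate (1.27, adjusted p = 0.0716). Zeb1 was not called different between basal cells and luminal progenitors (adjusted p = 0.190) or hormone-sensing cells (adjusted p = 0.311).

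Zeb2, the paralog of Zeb1, had 59.5% of its 1579 UMIs in fibroblasts and 6.78% in the epithelium. Another 15.5% lay in cells that passed more than 1 gate. Fibroblasts stood at 131 and 167 CPM in Zeb1 MSKO, against 131 and 145 CPM in Control, and 52.7% and 60.0% of them, against 55.0% and 68.0%, held a Zeb2 UMI. The levels of the 2 groups overlapped. Endothelial cells stood at 57.9 CPM in Zeb1 MSKO and 47.7 CPM in Control at 8 weeks, and held no Zeb2 UMI in the 8 and 9 cells at 9 weeks. Zeb2 differed from Zeb1 in T or NK cells, which held 1 Zeb2 UMI beside the 21 of Zeb1. Some rarer types reached or passed the fibroblast level in a library, from few cells. Pericytes held 11 Zeb2 UMIs in 11 cells (64.6 to 383 CPM over libraries) and B cells 13 in 28 (0 to 77.1 CPM). Macrophage or dendritic cells held 10 in 9 cells (0 to 439 CPM) and Schwann cells 3 in 5 (0 to 403 CPM). The row Zeb2os, an antisense transcript of the Zeb2 locus counted apart, held 97 UMIs. In the epithelium Zeb2 reached at most 1.22 CPM, in basal cells of the Zeb1 MSKO library at 8 weeks. At 9 weeks it had 0 UMIs in hormone-sensing cells of both libraries, where 3 counts correspond to 0.0580 CPM in Zeb1 MSKO and 0.0930 CPM in Control.

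The few ZEB UMIs of the epithelium were set beside those of 8 fibroblast markers in the same library. In luminal progenitors the median marker stood at 0.321% and 0.0121% of its fibroblast level in Zeb1 MSKO, against 0.0857% and 0.00684% in Control. Zeb1 stood at 1.08% and 2.09% of its fibroblast level there in Zeb1 MSKO, against 0.686% and 0.138% in Control, and Zeb2 at 0.772% and 0.0411%, against 0.379% and 0. Zeb1 was above the highest of the 8 markers in 2 of the 4 libraries, and Zeb2 in none. The marker sum itself was uneven, with 85.1 and 5.13 CPM in luminal progenitors of Zeb1 MSKO, against 25.9 and 4.75 CPM in Control, and its part in the Zeb1 counts was not tested.

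The luminal progenitors with a Zeb1 UMI were examined for markers of other cells. In the Zeb1 MSKO library at 9 weeks 31 cells held the 33 UMIs, and 0% of these cells had a fibroblast marker UMI, beside 4.06% of all its luminal progenitors, and 6.45% had an endothelial one (4.79% of all). At 8 weeks 50% of the 12 Zeb1 MSKO cells had a fibroblast marker UMI, near the 49.0% of all luminal progenitors there, and 41.7% an endothelial one (10.2% of all). The 14 cells of the Control library at 8 weeks had a fibroblast marker in 57.1% (19.7% of all) and a macrophage or dendritic marker in 35.7% (8.32% of all). These shares rest on few cells and were not tested. The cells with Zeb1 had a higher median depth than all luminal progenitors in every library. In Zeb1 MSKO the medians were 7733 beside 7615 UMIs at 8 weeks and 9875 beside 7552.5 UMIs at 9 weeks. In Control they were 11960.5 beside 8379 UMIs at 8 weeks and, from 3 cells, 9476 beside 8157.5 UMIs at 9 weeks.

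**Figure D2:**
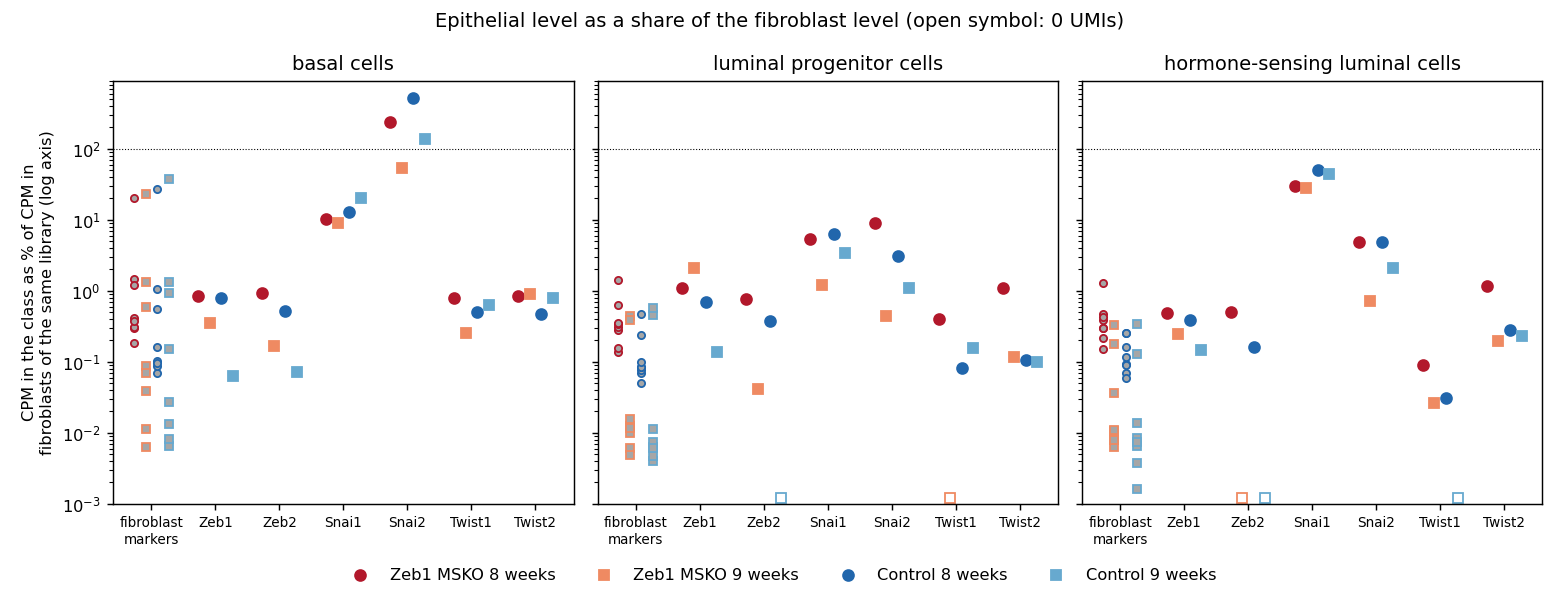
CPM in each epithelial type as a percentage of the CPM in fibroblasts of the same library (log axis), for the 8 fibroblast markers and the 6 EMT factors, with a point per library and an open symbol for 0 UMIs. Snai2 in basal cells lies at 53.5% to 515% and Snai1 in hormone-sensing cells at 28.0% to 50.2%, far above the ZEB and TWIST genes.

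The TWIST genes were the most fibroblast-bound. Fibroblasts held 79.4% of the 693 Twist1 UMIs and 71.6% of the 677 Twist2 UMIs. Cells that passed more than 1 gate held 14.1% and 15.2% of them. Twist1 stood at 67 and 73.9 CPM in fibroblasts of Zeb1 MSKO, against 95.9 and 25 CPM in Control, and Twist2 at 67 and 58.4 CPM, against 73.6 and 40.0 CPM. Endothelial cells held 0 Twist1 UMIs in all 4 libraries, which at 8 weeks allows up to 1.97 CPM in Zeb1 MSKO and 1.73 CPM in Control, and Twist2 had 2 UMIs there. The highest epithelial value of either gene was 0.780 CPM, for Twist2 in hormone-sensing cells of the Zeb1 MSKO library at 8 weeks.

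Snai1 was found in epithelium and stroma alike. Of its 3369 UMIs, 57.1% lay in hormone-sensing luminal cells, 12.3% in basal cells, 8.64% in fibroblasts and 4.16% in endothelial cells. Hormone-sensing cells stood at 14.6 and 14.2 CPM in Zeb1 MSKO, against 15.7 and 13.1 CPM in Control, basal cells at 5.05 and 4.53 CPM, against 4.04 and 6.15 CPM, and luminal progenitors at 2.63 and 0.619 CPM, against 1.99 and 1.02 CPM. The order hormone-sensing, basal, luminal progenitor held in every library. A Snai1 UMI was found in 11.1% and 11.8% of hormone-sensing cells in Zeb1 MSKO, against 9.47% and 9.43% in Control, and in 2.12% and 0.472% of luminal progenitors, against 1.70% and 0.908%, with median depths of 14150 to 17414 and 7552.5 to 8379 UMIs. With every cell thinned to 2000 UMIs the hormone-sensing shares were 2.46% and 2.30% in Zeb1 MSKO, against 2.70% and 2.23% in Control, and the luminal progenitor shares 0.303% and 0.0630%, against 0.381% and 0.189%. In basal cells Snai1 stood at 10.4% and 8.96% of its fibroblast level in Zeb1 MSKO, against 12.9% and 20.5% in Control, under Fbln1, the highest of the 8 fibroblast markers there, at 20.3% and 23.5%, against 27.5% and 37.2%. It was far above the median marker, at 0.398% and 0.0783% in Zeb1 MSKO, against 0.133% and 0.0904% in Control. The part of fibroblast RNA in basal Snai1 was not tested. Fibroblasts and endothelial cells stood higher than any epithelial type, at 30.0 to 50.6 CPM and 36.8 to 153 CPM over the 4 libraries, of which the highest rests on 7 UMIs in 9 Control cells at 9 weeks.

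Snai2 was the basal factor. Basal cells held 80.0% of its 4521 UMIs and stood at 52.7 and 29.1 CPM in Zeb1 MSKO, against 57.3 and 34.6 CPM in Control. A Snai2 UMI was found in 22.7% and 19.2% of basal cells in Zeb1 MSKO, against 30.9% and 21.9% in Control, and in 1.64% and 0.220% of luminal progenitors, against 0.331% and 0.265%, at similar depths (medians of 5602 to 8037 and 7552.5 to 8379 UMIs). Luminal progenitors and hormone-sensing cells stayed at or under 2.02 CPM in all 4 libraries. Fibroblasts stood at 22.2 and 54.5 CPM in Zeb1 MSKO, against 11.1 and 25 CPM in Control, and endothelial cells at 3.94 CPM in Zeb1 MSKO and 1.15 CPM in Control at 8 weeks. The hair follicle cells of the Zeb1 MSKO library at 8 weeks held 14 Snai2 UMIs, or 6.82 CPM.

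The differences between cell types were tested on UMI sums per library with the library as a block (edgeR's quasi-likelihood test over 13952 genes; all 6 members were tested). Between basal cells and luminal progenitors, where 55.2% of all genes were called (27.9% higher and 27.3% lower in basal cells), 3 members were higher and 0 lower in basal cells. They were Snai2 (log2 fold change 6.29, SE 0.44, edgeR adjusted p = 1.25e-08), Twist1 (2.14, SE 0.55, adjusted p = 0.00369) and Snai1 (1.76, SE 0.29, adjusted p = 9.42e-05). Twist1 reached at most 0.523 CPM in either type, and its call was lost without the Control library at 8 weeks (1.75, adjusted p = 0.0641). Between basal and hormone-sensing cells, with 68.9% of genes called (35.1% higher and 33.8% lower), Snai2 (6.17, SE 0.43) and Twist1 (3.52, SE 0.63) were higher and Snai1 (-1.56, SE 0.26, adjusted p = 6.07e-05) was lower in basal cells. The Twist1 calls rest on 29 UMIs in basal cells, 8 in luminal progenitors and 3 in hormone-sensing cells. Basal Twist1 stood at 0.781% and 0.255% of its fibroblast level in Zeb1 MSKO, against 0.500% and 0.635% in Control. That lay between the median and the highest of the 8 fibroblast markers there in every library, and the part of fibroblast RNA in it was not tested. Between luminal progenitors and hormone-sensing cells, Snai1 was lower in luminal progenitors (log2 fold change -3.32, SE 0.28, adjusted p = 1.10e-07), beside the higher Zeb1 given above.

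Against fibroblasts, Snai2 in basal cells was the exception among the factors. Basal cells were called lower than fibroblasts for 5 members, at log2 fold changes of -7.54 (SE 0.47) for Zeb1, -7.89 (SE 0.59) for Zeb2, -2.89 (SE 0.31) for Snai1, -7.45 (SE 0.36) for Twist1 and -7.01 (SE 0.46) for Twist2, with 49.4% of all genes called (26.3% higher and 23.1% lower). Snai2 alone was called higher (1.35, SE 0.45, edgeR adjusted p = 0.020), and this call was the least firm: it was lost without the Zeb1 MSKO library at 8 weeks (1.18, adjusted p = 0.0570), without the Control library at 8 weeks (0.80, adjusted p = 0.245), without the library block (1.02, adjusted p = 0.143) and with DESeq2 (0.85, adjusted p = 0.174). Luminal progenitors and hormone-sensing cells were lower than fibroblasts for all 6 members. In luminal progenitors 55.9% of genes were called (29.8% higher and 26.1% lower), and in hormone-sensing cells 59.7% (31.7% higher and 28.1% lower). The smallest difference was that of Snai1 in hormone-sensing cells (-1.33, SE 0.29, adjusted p = 0.00112), where Snai1 stood at 28.0% to 50.2% of its fibroblast level. For the others the log2 fold changes lay between -4.64 (Snai1) and -9.59 (Twist1) in luminal progenitors and between -4.82 (Snai2) and -10.97 (Twist1) in hormone-sensing cells.

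Endothelial cells had over 20 cells only in the libraries at 8 weeks and entered a separate fit, added after seeing the data (15153 genes). Fibroblasts were higher than endothelial cells for Zeb2 (log2 fold change 2.08, SE 0.58, edgeR adjusted p = 0.0107), Snai2 (3.39, SE 0.80, adjusted p = 0.00373), Twist1 and Twist2, while 30.5% of all genes were called (16.5% higher and 14% lower). Twist1 has no fold change to give, since its endothelial counts were all 0. Zeb1 (0.10, SE 0.38, adjusted p = 0.902) and Snai1 (0.27, SE 0.35, adjusted p = 0.622) were not called different between these types. Their SEs leave room for a difference of either sign.

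The number of different EMT factors seen in a single cell followed the cell type. At least 1 of the 6 was detected in 87.0% and 90.0% of fibroblasts in Zeb1 MSKO, against 88.2% and 80.0% in Control. At least 3 were detected in 27.6% and 43.3%, against 27.8% and 36.0%. The most factors in any single unthinned fibroblast were 6 and 6 in Zeb1 MSKO, against 5 and 4 in Control, values that rest on single cells. Basal cells with at least 2 made up 1.04% and 1.35% in Zeb1 MSKO, against 1.34% and 0.870% in Control, and no basal cell held more than 3. Thinned to 2000 UMIs per cell, the fibroblasts with at least 1 factor were 53.5% and 53.3% in Zeb1 MSKO, against 55.3% and 40.0% in Control. In unthinned fibroblasts Zeb2 was detected in 53.6% of cells with Zeb1 and 52.3% of those without in the Zeb1 MSKO library at 8 weeks, against 57.9% and 53.7% in the Control library. The cells with Zeb1 were deeper, at medians of 7476 and 5980 UMIs in Zeb1 MSKO, against 8047 and 6740.5 UMIs in Control. In thinned cells the order turned, with 20.3% and 21.7% in Zeb1 MSKO, against 23.3% and 26.3% in Control.

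Snai1 is also known as an early response gene, and its level was set beside a sum of 10 immediate-early genes (Fos, Fosb, Jun, Junb, Jund, Egr1, Atf3, Ier2, Zfp36 and Btg2), which also rise when tissue is dissociated. The list was chosen after seeing the data, and cells thinned to 2000 UMIs were cut into tertiles within each library and class. In fibroblasts at 8 weeks, Snai1 in the lowest, middle and highest tertile stood at 33.9, 36.9 and 99.4 CPM in Zeb1 MSKO, against 11.5, 23.1 and 69.8 CPM in Control. In basal cells the lowest tertile stood at 3.65 and 3.16 CPM in Zeb1 MSKO, against 2.63 and 0.725 CPM in Control, the middle at 3.32 and 5.68 CPM, against 1.75 and 9.42 CPM, and the highest at 7.31 and 8.22 CPM in Zeb1 MSKO, against 7.01 and 7.25 CPM in Control. The basal values rest on 1 to 22 UMIs each, and in the Control library at 9 weeks the middle tertile was the highest. In hormone-sensing cells the highest tertile had the lowest Snai1 of the 3 in all 4 libraries. The lowest tertile stood at 12.3 and 17.0 CPM in Zeb1 MSKO, against 19.3 and 18.5 CPM in Control, the middle at 16.4 and 14.4 CPM, against 16.8 and 12.8 CPM, and the highest at 8.22 and 12.4 CPM in Zeb1 MSKO, against 11.2 and 7.11 CPM in Control. Snai2 in basal cells was at 58.5 and 25.9 CPM in the lowest tertile of Zeb1 MSKO, against 75.3 and 43.5 CPM in Control, at 57.8 and 18.9 CPM in the middle, against 52.5 and 34.1 CPM, and at 38.5 and 22.1 CPM in the highest tertile of Zeb1 MSKO, against 36.8 and 22.5 CPM in Control. These are descriptions of cells that share a library, and the tertiles are cuts through a continuous range.

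**Figure D3:**
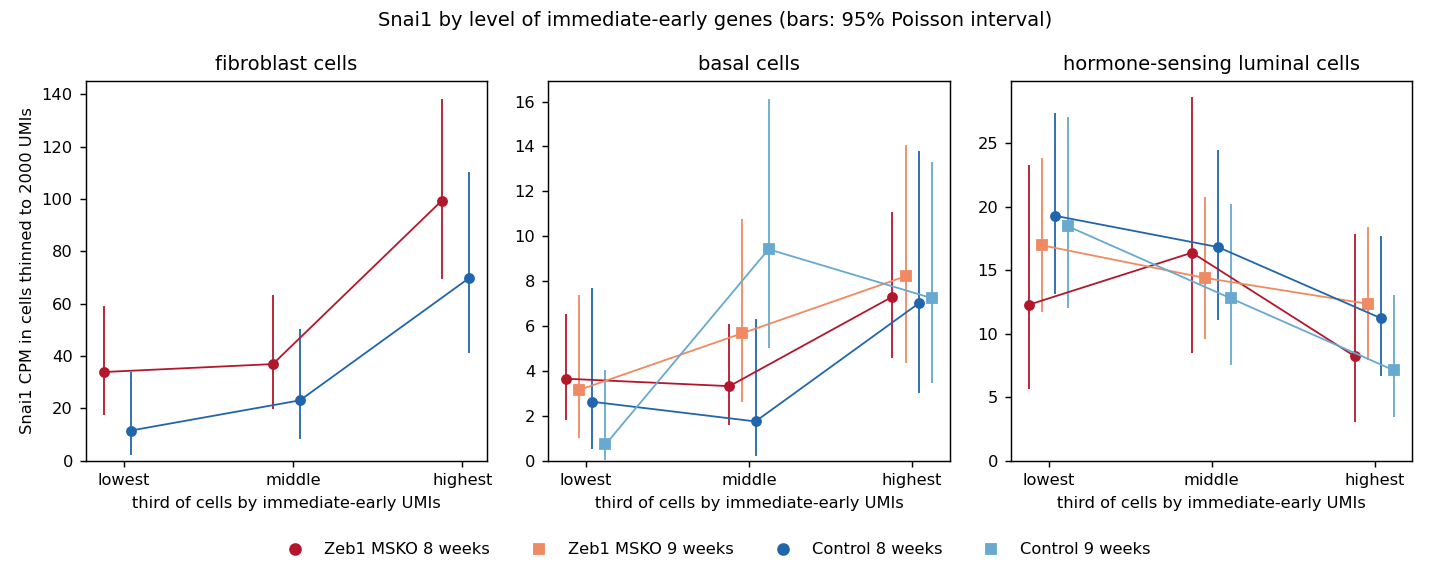
Snai1 CPM in cells thinned to 2000 UMIs, by tertile of the summed immediate-early UMIs within a library, with exact 95% Poisson intervals. The highest tertile is the highest in fibroblasts of both libraries at 8 weeks (99.4 CPM in Zeb1 MSKO and 69.8 CPM in Control) and the lowest in hormone-sensing cells of all 4 libraries. In hormone-sensing cells the intervals of the lowest and highest tertile overlap in every library.

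The study's own comparison, Zeb1 MSKO against Control, was tested within each cell type with 2 libraries a group. No gene was called by edgeR in basal cells (0 of 12946, 0%), luminal progenitors (0 of 12976, 0%), hormone-sensing cells (0 of 13027, 0%) or fibroblasts (0 of 8765, 0%). At an unadjusted p under 0.05 there were 74, 166, 467 and 177 genes, and DESeq2 called 2, 8, 35 and 0. The filter on low counts left 4, 3, 2 and 6 of the 6 members, and none was called.

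**Figure D4:**
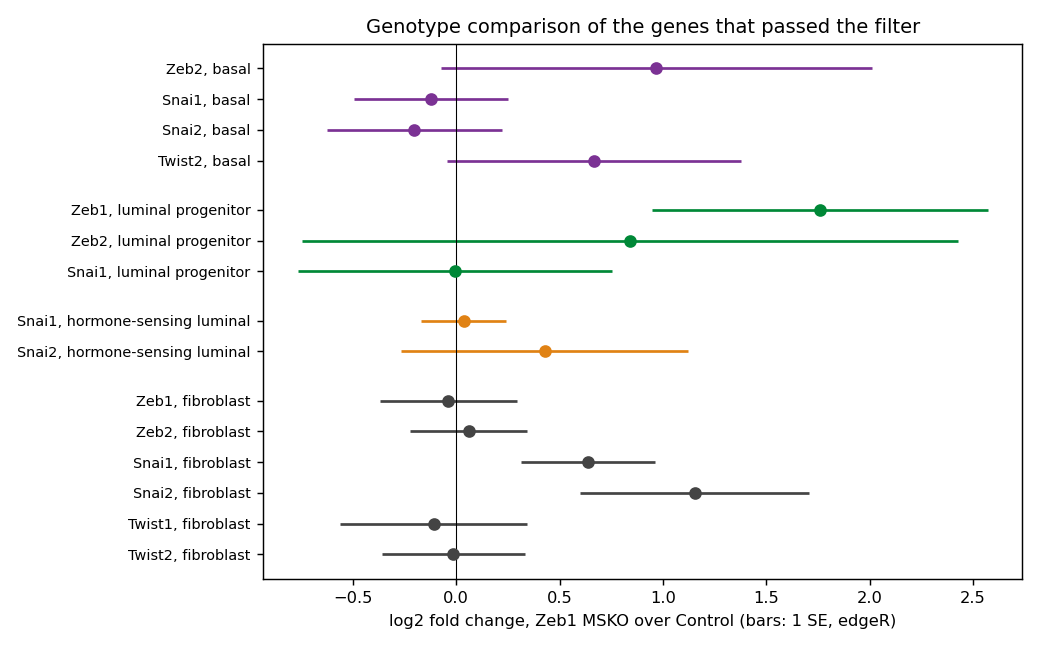
log2 fold change of each EMT factor that passed the filter on low counts, Zeb1 MSKO over Control, by cell type, with bars for 1 SE from edgeR (2 libraries a group). No value passed the adjusted threshold, and the factors farthest from 0 are Zeb1 in luminal progenitors (1.76) and Snai2 in fibroblasts (1.15).

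In the epithelium the factors with the most counts were close between genotypes. Snai2 in basal cells averaged 40.9 ± 16.7 CPM in Zeb1 MSKO and 45.9 ± 16.1 CPM in Control (SD, n = 2 each), with a fold change of -0.20 on the log2 scale (SE 0.43, edgeR adjusted p = 1.0), a difference far inside the spread between ages, and its sign turned without the Zeb1 MSKO library at 9 weeks (0.18) or the Control library at 8 weeks (0.24). At each age the Zeb1 MSKO library was the lower of the pair, with ratios of 0.920 (exact 95% interval 0.845 to 1.0) at 8 weeks and 0.843 (0.754 to 0.942) at 9 weeks, intervals that cover counting error only. Snai1 in hormone-sensing cells averaged 14.4 ± 0.336 CPM in Zeb1 MSKO and 14.4 ± 1.80 CPM in Control (SD, n = 2 each), and the fitted fold change was 0.04 on the log2 scale (SE 0.21, edgeR adjusted p = 0.999). Snai1 in basal cells averaged 4.79 ± 0.370 CPM in Zeb1 MSKO and 5.09 ± 1.49 CPM in Control (log2 fold change -0.12, SE 0.37). The share of thinned cells with a UMI differed by -1.33 percentage points for Snai2 in basal cells (exact permutation test over libraries, two-sided p = 0.667) and by -0.0836 for Snai1 in hormone-sensing cells (exact p = 1), in a design whose smallest possible p is 0.333.

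Zeb1 in luminal progenitors averaged 0.972 ± 0.231 CPM in the libraries labelled Zeb1 MSKO and 0.269 ± 0.214 CPM in Control (SD, n = 2 each). The difference was not called (log2 fold change 1.76, SE 0.81, edgeR unadjusted p = 0.0699, adjusted p = 1.0), and it was positive in the libraries labelled as the mutant. The ratio was 1.93 (exact 95% interval 0.832 to 4.34) at 8 weeks and 9.65 (3.03 to 49.2) at 9 weeks, the second from 33 UMIs in Zeb1 MSKO and 3 in Control. The fold change ran from 1.17 to 2.97 when each library was left out in turn. Its difference from basal cells was 1.27 (SE 1.12, edgeR adjusted p = 1), with 0% of 14631 genes called in that test of the difference. No member was called in the same test for hormone-sensing minus basal cells (0.00683% of genes called) or hormone-sensing cells minus luminal progenitors (0%), where 616 and 757 genes had an unadjusted p under 0.05, as 317 did for luminal progenitors minus basal cells.

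Snai2 in luminal progenitors was at 2.02 CPM in Zeb1 MSKO and 0.341 CPM in Control at 8 weeks, and at 0.241 CPM in Zeb1 MSKO and 0.275 CPM in Control at 9 weeks. It did not pass the filter on low counts there, but it did in the joint fit of the epithelial types, where its genotype effect in luminal progenitors minus that in basal cells was 1.63 (SE 0.61, unadjusted p = 0.0246, edgeR adjusted p = 1). The summed level of 9 basal markers in luminal progenitors moved with it, at 439 and 181 CPM in Zeb1 MSKO, against 109 and 151 CPM in Control, and its part in the result was not tested. Without the library that stood apart, Zeb1 MSKO at 8 weeks, the difference was 0.39.

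Fibroblasts gave counts for all 6 factors. Snai1 stood at 48.8 and 50.6 CPM in Zeb1 MSKO, against 31.3 and 30.0 CPM in Control, and was not called (log2 fold change 0.64, SE 0.32, edgeR unadjusted p = 0.0799, adjusted p = 1.0). Counting error alone left a ratio of 1.56 (1.21 to 2.03) at 8 weeks and 1.68 (0.597 to 5.40) at 9 weeks, where 13 and 6 UMIs were counted. The immediate-early sum was also higher in the Zeb1 MSKO library at 8 weeks, at 8.39, 23.4 and 53.0 UMIs per thinned fibroblast in the lowest, middle and highest tertile, against 6.15, 14.6 and 41.4 UMIs in Control, and its part in the Snai1 difference was not tested. Snai2 averaged 38.3 ± 22.8 CPM in Zeb1 MSKO and 18.1 ± 9.84 CPM in Control (SD, n = 2 each). Its fold change was 1.15 on the log2 scale (SE 0.56, edgeR adjusted p = 1.0), with ratios of 2.0 (1.32 to 3.11) at 8 weeks and 2.18 (0.741 to 7.72) at 9 weeks. Zeb1 (-0.04, SE 0.33), Zeb2 (0.06, SE 0.28), Twist1 (-0.11, SE 0.45) and Twist2 (-0.01, SE 0.35) had fold changes smaller than their SE. The sort can set which fibroblasts were sampled in each library.

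Between ages, Snai2 in basal cells was lower at 9 weeks in both genotypes but was not called. It stood at 29.1 CPM (Zeb1 MSKO) and 34.6 CPM (Control) at 9 weeks, against 52.7 CPM (Zeb1 MSKO) and 57.3 CPM (Control) at 8 weeks. In a comparison of ages with genotype as a block, added after seeing the data, its log2 fold change was -0.85 (SE 0.32, edgeR adjusted p = 0.107) and it was not called, while 618 of 12946 genes were (4.77%, of which 0.834% higher and 3.94% lower at 9 weeks). The Zeb2 fold changes were negative in basal cells (-2.34, SE 0.82, adjusted p = 0.0749) and luminal progenitors (-4.30, SE 1.21, adjusted p = 0.0817; 2.91% of genes called, 0.362% higher and 2.54% lower), both short of the threshold and from at most 35 UMIs a library. The summed fibroblast markers in luminal progenitors moved the same way, at 5.13 CPM (Zeb1 MSKO) and 4.75 CPM (Control) at 9 weeks, against 85.1 and 25.9 CPM at 8 weeks. In basal cells the same sum was lower at 9 weeks in Zeb1 MSKO (212 CPM, against 286 CPM) but higher in Control (262 CPM, against 218 CPM). The part of these markers was not tested. No member was called in fibroblasts (0.673% of genes called, 0.0114% higher and 0.662% lower) or hormone-sensing cells (0%, with 1389 genes at an unadjusted p under 0.05). Each age is 1 library a genotype, so age and preparation cannot be told apart.

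The known targets of these factors were described by cell type from lists of the pathway. Of 22 tested epithelial genes that ZEB and SNAIL repress, 19 were lower and 2 higher in basal cells than in luminal progenitors (list median log2 fold change -2.0, against -0.02 over all genes, of which 27.3% were lower and 27.9% higher), and 16 were lower and 3 higher in basal than in hormone-sensing cells (median -1.78, against 0.03 over all genes, of which 33.8% were lower and 35.1% higher). Against fibroblasts, 19, 22 and 21 of the 22 were higher in basal cells, luminal progenitors and hormone-sensing cells, and 0 were lower, beside 26.3%, 29.8% and 31.7% of all genes called higher. Over the 4 libraries Epcam averaged 641 ± 189 CPM in basal cells, 2788 ± 694 CPM in luminal progenitors, 1886 ± 390 CPM in hormone-sensing cells and 71.8 ± 36.7 CPM in fibroblasts (SD, n = 4 each). Krt8, a luminal keratin, averaged 606 ± 118, 2755 ± 575, 5834 ± 2459 and 139 ± 59.4 CPM in the same types. The tight junction gene Cldn3 averaged 926 ± 116 CPM in luminal progenitors and Cldn4 907 ± 396 CPM in hormone-sensing cells.

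Mesenchymal genes were graded, with basal cells between luminal cells and fibroblasts. Of 14 tested, 9 were higher and 0 lower in basal cells than in luminal progenitors (median 2.98), 12 higher and 0 lower than in hormone-sensing cells (median 2.57), and 1 higher and 12 lower than in fibroblasts (median -2.47). Of all genes, 27.9% and 35.1% were higher in the first 2 comparisons, and 23.1% were lower in the last. All 14 were lower in luminal progenitors and in hormone-sensing cells than in fibroblasts (medians -7.43 and -7.86), as 26.1% and 28.1% of all genes were. The matrix gene Sparc averaged 2180 ± 134 CPM in basal cells, 32.1 ± 34.8 CPM in luminal progenitors, 32.3 ± 33.4 CPM in hormone-sensing cells and 6741 ± 1308 CPM in fibroblasts (SD, n = 4 each). Vim, the intermediate filament of mesenchymal cells, averaged 479 ± 115, 18.6 ± 9.58, 8.43 ± 6.63 and 2800 ± 880 CPM in the same types.

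The partners and upstream signals of the factors were counted in the same way. Of 19 cofactors, which include the CtBP and CHD4 corepressors and the E proteins that pair with TWIST, 6 were higher and 1 lower in basal cells than in luminal progenitors, 8 higher and 5 lower than in hormone-sensing cells, and 7 higher and 1 lower than in fibroblasts, where 55.2%, 68.9% and 49.4% of all genes were called in either direction. Chd4 averaged 147 ± 18.2 CPM in basal cells, 117 ± 12.7 CPM in luminal progenitors, 110 ± 12.4 CPM in hormone-sensing cells and 89.4 ± 17.1 CPM in fibroblasts, whereas the E protein gene Tcf4 averaged 280 ± 71.5 CPM in fibroblasts. Of 15 tested upstream genes, which include TGF-beta ligands and receptors, 7 were higher and 3 lower in basal cells than in luminal progenitors, 9 higher and 4 lower than in hormone-sensing cells, and 6 higher and 3 lower than in fibroblasts. The receptor gene Tgfbr2 averaged 239 ± 55.3 CPM in fibroblasts and 31.1 ± 5.48 CPM in hormone-sensing cells, and the ligand gene Tgfb3 averaged 130 ± 38.4 CPM in luminal progenitors. Among 11 tested other factors linked to the EMT, Prrx1 averaged 206 ± 24.4 CPM in fibroblasts and Sox9 328 ± 74.3 CPM in luminal progenitors (SD, n = 4 each).

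**Figure D5:**
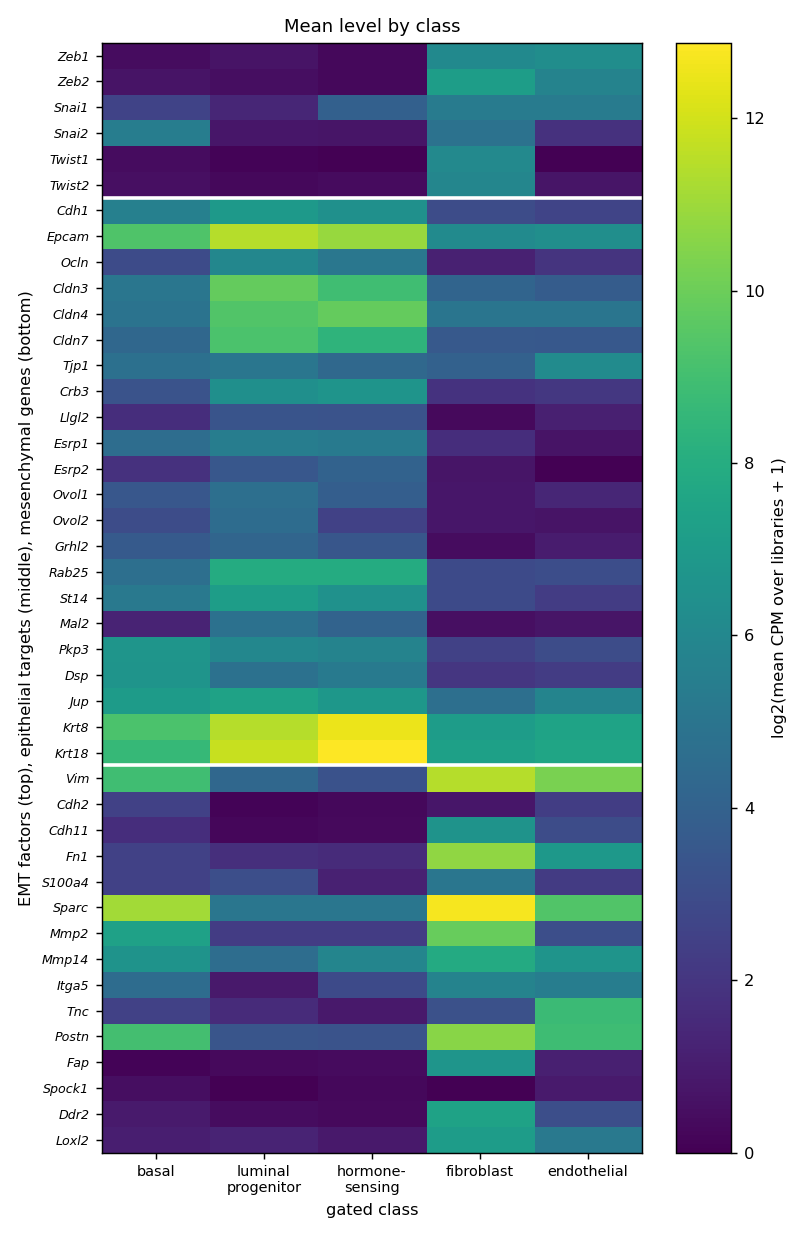
Mean level by cell type, as log2 of the mean CPM over libraries plus 1, for the EMT factors (top), the epithelial target genes (middle) and the mesenchymal genes (bottom). Most mesenchymal genes are low in both luminal types and most epithelial targets are low in fibroblasts, as for Vim (18.6 CPM in luminal progenitors and 2800 CPM in fibroblasts) and Epcam (2788 CPM in luminal progenitors and 71.8 CPM in fibroblasts).

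Between genotypes none of these genes was called in any of the 4 cell types. The list medians of the epithelial targets were -0.09 in basal cells, -0.14 in luminal progenitors, -0.12 in hormone-sensing cells and -0.31 in fibroblasts, against 0.02, -0.0028, 0.02 and 0.02 over all genes tested, and 6 of 22, 5 of 22, 5 of 22 and 4 of 12 were above 0. The target with the lowest unadjusted p was Cldn4 in fibroblasts (log2 fold change -1.47, SE 0.54, unadjusted p = 0.0240). The mesenchymal medians were -0.16 in basal cells, 0.62 in luminal progenitors, 0.69 in hormone-sensing cells and -0.05 in fibroblasts. Sparc had the lowest unadjusted p of that list in both luminal types (log2 fold change 1.62, SE 0.72 in luminal progenitors and 1.72, SE 0.73 in hormone-sensing cells), where the summed fibroblast markers were also highest in the Zeb1 MSKO library at 8 weeks, at 85.1 CPM in luminal progenitors and 111 CPM in hormone-sensing cells. In basal cells Vim, at -0.55 (SE 0.27), was among the 2 of lowest p in that list, and in fibroblasts Itga5, an integrin gene, was the lowest (-1.24, SE 0.32). Snai3, a SNAIL gene outside the core set, stood at 0.674 and 0.585 CPM in luminal progenitors of Zeb1 MSKO, against 2.41 and 1.06 CPM in Control (log2 fold change -1.52, SE 0.65). Axin2, a WNT target (2.23, SE 0.75), and Tgfbr3, a TGF-beta co-receptor (2.33, SE 0.87), had the lowest p of the upstream list in hormone-sensing cells. The edgeR adjusted p was 0.999 or higher for each of them.

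The genes most like each factor were found by Pearson correlation of log2(CPM + 10) over the 19 class and library profiles with at least 20 cells. These profiles share libraries and few cell types, so the values only describe. Zeb1 was nearest to Enpp2 (r = 0.995), Slfn5 and Flrt2, and Zeb2 to Thy1 (0.997), Ecm2 and Colec12. Twist1 had Twist2 among its nearest 3 (0.990), after Chrdl1 and Vit, and Twist2 was nearest to Bmper (0.998), Ogn and Nova1. Snai1 was nearest to Rab13 (0.973), Npc2 and Parp3, and Snai2 to Sobp (0.948), Rgs10 and Gfra2. Among the factors themselves Zeb1 and Zeb2 had r = 0.965, while Snai2 had its highest value with Twist2 (0.409).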

How the data were processed

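UMI counts per gene and cell were made with Cell Ranger 2.1.0 on mm10, per the submitters' processing notes, and the authors deposited them as 1 raw count matrix of the 4 libraries. Whether depth was equalised between libraries when they were joined is not stated. The members and gene lists were chosen with earlier results of these data known, and the gate limits were set after seeing the data.

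Barcodes with at least 500 genes and at most 10% mitochondrial UMIs were kept. A marker counted at 1 or more UMI per 10000, and a cell type needed 4 markers of a list of 8 or 9 and 3 of a shorter list. Cells that passed more than 1 gate were left out as possible doublets, and no doublet caller was run. UMIs were summed per type and library, with at least 20 cells, and tested with edgeR 4.0.16 (TMM, default filter on low counts, quasi-likelihood test, Benjamini-Hochberg adjustment, threshold 0.05) in R 4.3.3. DESeq2 1.42.0 was an alternative. The genotype fit had 2 libraries a group and no covariate, the cell type fit had the library as a block, and a joint fit tested whether the genotype effect differed between epithelial types. The scripts were tested on simulated data. Shares of cells were compared after thinning each cell to 2000 UMIs, with an exact permutation test over libraries whose smallest p is 0.333. Intervals (95%, exact Poisson or binomial) and floors (3 counts) cover counting error only. Other alternatives were scaling by DESeq2 size factors, no filter, age as a replicate block, a stricter and a looser gate, leaving out the 10% of cells with most UMIs, and leaving out each library.

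All 6 members were named throughout. From each list the genes named are, between genotypes, up to 2 of lowest unadjusted p where none was called, and, by cell type, up to 4 of the highest CPM in the type described. For likeness, the 3 genes of highest r were taken among genes of at least 20 CPM in 1 profile. Snai3 belongs to the list of other EMT factors.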

Additional observations from a re-analysis of the deposited data

Results flagged for a closer look

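Twist1 in fibroblasts differed in direction between ages. Its Zeb1 MSKO over Control ratio was 0.699 (exact 95% interval 0.586 to 0.832) at 8 weeks, from 250 UMIs in Zeb1 MSKO and 276 in Control, and 2.95 (1.07 to 10.1) at 9 weeks, from 19 UMIs in Zeb1 MSKO and 5 in Control. Each age has 1 library a genotype, so the difference between ages was not tested, and the intervals cover counting error only.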

How the results depend on the processing

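No EMT factor was called between genotypes under any alternative run. The number of genes called was 0 with DESeq2 size factors as scaling. With DESeq2 it was 2 in basal cells, 8 in luminal progenitors and 35 in hormone-sensing cells, and without a filter on low counts it was 46, 101 and 3 there and 51 in fibroblasts. Age as a replicate block gave 24 in basal cells, 15 in luminal progenitors, 1 in hormone-sensing cells and 24 in fibroblasts. The age differences of both genotypes correlated across genes at r = 0.378, 0.344, 0.268 and 0.166 in these types, over 2 pairs that share only an age, so the pairing is not established.

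Of the genotype fold changes printed above, those that turned sign were Twist1 (0.029) and Twist2 (0.031) in fibroblasts with DESeq2, Zeb1 in fibroblasts with the block (0.040) and without the 10% of cells with most UMIs (0.0041), Snai1 in hormone-sensing cells with a stricter gate (-0.056) and without those cells (-0.084), and Zeb2 (-0.045) and Twist2 (0.11) in fibroblasts with a looser gate, which was added after seeing the data. The Snai1 share in hormone-sensing cells was 2.01 points higher in Zeb1 MSKO in unthinned cells. A stricter gate left 1 factor called between luminal progenitors and hormone-sensing cells, where 3972 genes were called higher and 3644 lower in luminal progenitors.

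With each library left out in turn, genes called ran from 0 to 15 in basal cells (15 without Zeb1 MSKO at 9 weeks, 3 without Zeb1 MSKO at 8 weeks), 0 to 6 in luminal progenitors (6 without Control at 9 weeks) and 0 to 142 in fibroblasts (142 without Zeb1 MSKO at 8 weeks, 58 without Zeb1 MSKO at 9 weeks). Log2 fold changes ran from -0.37 to 0.17 for Snai1 and -0.73 to 0.24 for Snai2 in basal cells and from -0.064 to 0.14 for Snai1 in hormone-sensing cells. In fibroblasts they ran from -0.42 to 0.13 for Zeb1, -0.061 to 0.19 for Zeb2, 0.39 to 1.83 for Snai2, -0.55 to 1.47 for Twist1 and -0.28 to 0.69 for Twist2. The sign turned for Snai1 in both epithelial types without Control at 9 weeks, for Twist1 and Twist2 without Control at 8 weeks, for Twist2 (0.038) and Zeb2 without Zeb1 MSKO at 9 weeks, and for Zeb1 without either library at 9 weeks. Factors called ran from 2 to 4 between basal cells and luminal progenitors, 3 to 5 between basal and hormone-sensing cells (5 without Zeb1 MSKO at 8 weeks) and 1 to 2 between luminal progenitors and hormone-sensing cells. Of all genes, 6270 to 7122, 8605 to 9193 and 6429 to 7185 were called in these 3 comparisons. For the difference of genotype effects, genes called ran from 0 to 9 for luminal progenitor minus basal, 0 to 48 for hormone-sensing minus basal (48 without Zeb1 MSKO at 9 weeks) and 0 to 5 for hormone-sensing minus luminal progenitor, and without the filter the last 2 were 3 and 4. Shares ran from -3.78 to 1.12 points for Snai2 in basal cells and -0.321 to 0.153 for Snai1 in hormone-sensing cells. Fibroblasts at 9 weeks (30 cells in Zeb1 MSKO and 25 in Control) and the ZEB counts of the epithelium limit the precision, and the causes were not tested.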
